A study of Homo sapiens with 8 samples.

Results

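The noncoding RNAs RN7SK, RMRP, RPPH1, RN7SL1, RN7SL2 and TERC are described here, 6 of the 54261 genes of a count table from 8 libraries of intestinal cell lines. They were chosen by symbol, and by their measured level as abundant structured RNAs, with RN7SK the largest gene of every library. Their levels are therefore given as a description, without a test. Counts were present in all 8 libraries for 4 of the 6 RNAs, while RN7SL1 and RN7SL2 were listed at 0 in all 8. The 8 libraries came from total RNA depleted of ribosomal RNA. NCM460 and HIEC6, lines of normal intestinal epithelium, were grown without treatment and formed the normal group (n = 2 lines). DLD1, HCT116 and HCT8, lines from colorectal cancer (CRC), were sequenced without treatment (n = 3 lines) and after hypoxia (n = 3 lines). All cultures were labelled passage 5 and grown in DMEM with serum. The labels give neither the oxygen level nor the duration of hypoxia. Each library was 1 culture of 1 line, so the replicates of a group were different lines. In tests that do not pair the libraries of a line, p-values measure the spread between lines. In tests that pair them, p-values measure how the difference under hypoxia varied over the 3 lines.

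These RNAs act inside ribonucleoproteins. RN7SK, the 7SK RNA, is a nuclear RNA that, with HEXIM proteins, holds the kinase P-TEFb in an inactive form and so restrains the release of paused RNA polymerase II. RPPH1 is the catalytic RNA of RNase P, which trims the 5′ ends of precursor tRNAs, and RMRP is the RNA of the related RNase MRP, which takes part in ribosomal RNA processing and shares most of its proteins with RNase P. RN7SL1 and RN7SL2 encode the 7SL RNA, the scaffold of the signal recognition particle that brings nascent secretory proteins to the endoplasmic reticulum. TERC is the template RNA of telomerase and, unlike the other 5, is made by RNA polymerase II. The others are products of RNA polymerase III.

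Sequences of 3 of the RNAs are shown first, from GENCODE release 44 lifted to GRCh37, because they bear on how reads could be assigned or on what the RNA does.
RMRP (chr9:35657751-35658014, minus strand, 264 nt) is shown whole because no stretch of it was shared with another place in the genome at the window lengths examined.
RMRP: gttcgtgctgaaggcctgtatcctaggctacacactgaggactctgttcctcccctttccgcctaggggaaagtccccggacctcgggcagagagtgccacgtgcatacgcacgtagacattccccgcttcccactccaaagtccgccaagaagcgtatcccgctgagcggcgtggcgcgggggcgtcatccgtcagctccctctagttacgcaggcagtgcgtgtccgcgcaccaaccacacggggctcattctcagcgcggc
RN7SK (chr6:52860418-52860748, plus strand, 331 nt) is shown over its 5′ stretch, which holds all 3 GATC motifs of the RNA, in capitals. The motif is known from the HEXIM binding region.
RN7SK: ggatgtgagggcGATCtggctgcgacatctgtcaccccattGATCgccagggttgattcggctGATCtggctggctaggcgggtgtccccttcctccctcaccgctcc
TERC (chr3:169482308-169482848, minus strand, 541 nt) is shown over bases 21 to 81, with the template stretch, bases 46 to 56, in capitals. These 11 bases are complementary to the telomere repeat.
TERC: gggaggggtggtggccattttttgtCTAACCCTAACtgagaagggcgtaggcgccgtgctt
RPPH1, RN7SL1 and RN7SL2 are named only.

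Sequence windows of 50, 100 and 150 nt were slid along RN7SK, RMRP, TERC and the 7SL rows RN7SL2, RN7SL3, RN7SL4P and RN7SL5P. They were counted in the GRCh37 primary assembly on both strands. RPPH1 and RN7SL1 were not matched by symbol in the reference and were not examined. All windows of RMRP and TERC had exactly 1 place in the genome at every length (100%). For RN7SK the share was 23.4% at 50 nt, 48.7% at 100 nt and 100% at 150 nt. For RN7SL2 it was 12.1%, 16.7% and 33.1%, the lowest of the RNAs examined at each length. Of the 7SL rows that did hold counts, RN7SL3 had 62.5%, 87.9% and 100%. RN7SL4P had 41.6%, 52.3% and 70.3%, and RN7SL5P 33.1%, 41.8% and 56.8%. Most windows of RN7SL2 thus matched several places, up to 19 at 50 nt. The read length and the handling of reads with several matches are not given in the sources used here.

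**Figure D1:**
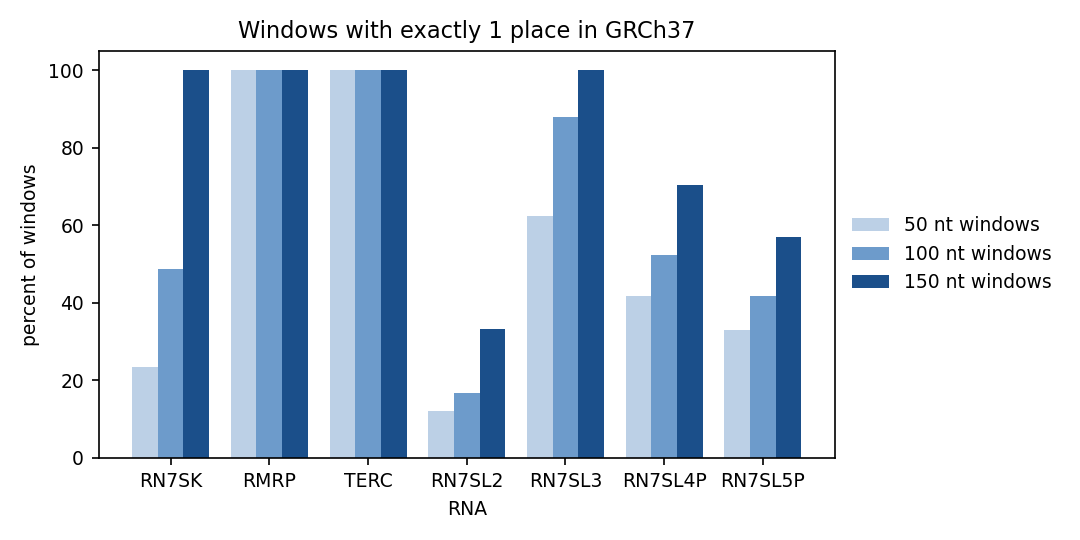
Percent of sequence windows (vertical axis) with exactly 1 place in the GRCh37 primary assembly, for windows of 50, 100 and 150 nt (bars, light to dark) of 7 RNAs. RMRP and TERC reached 100% at each length, and RN7SL2 reached at most 33.1%.

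Total counts lay between 45519306 and 57374239 per library, and a floor of 3 counts was worth 0.0523 to 0.0659 CPM, the unit of counts scaled by the library total to 1e6. The 95% exact (Clopper-Pearson) interval of a share of the library was at most 0.00519 percentage points to either side, which covers counting error only. Untreated and hypoxia libraries shared no run label, so run and treatment cannot be told apart. Across 21647 genes, the library labelled NCM460 resembled that of HCT116 (Pearson r = 0.989 on log2(CPM + 1)) more than that of the other normal line, HIEC6 (r = 0.876), and HCT116 under hypoxia resembled untreated HCT116 at r = 0.965. Between 6 and 7 of 7 epithelial markers were above the floor in every library. HIEC6 had 10 counts of the epithelial adhesion gene EPCAM. It had 4290 CPM of KRT8 and 3725 CPM of KRT18, but 3.03 CPM of CDH1, 0.987 of KRT19, 0.0705 of VIL1 and 0.0529 of CDX2. Its mesenchymal markers summed to 1280 CPM against 6.17 to 72.7 CPM elsewhere, of which VIM alone made up 1223 CPM. COL1A1 (46.0 CPM) and PDGFRB (8.60 CPM) were also highest in HIEC6, whereas COL1A2 (0.458 CPM) was lowest there. COL3A1 had 1.16 CPM in HIEC6 against 5.04 CPM in HCT116 under hypoxia, and THY1 (0.0353 CPM in HIEC6) was under the floor. The extraction label names a brain tissue, and neural markers summed to 13.5 to 284 CPM, mostly from MBP and SYT1. GFAP was at or under the floor except in HCT8, where it had 0.0950 CPM. The part of these features in the results was not tested.

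RN7SK was the largest gene of all 8 libraries. Its level by library total was 17219 CPM in NCM460 and 19569 CPM in HIEC6. Without treatment DLD1 had 12722 CPM, HCT116 28480 CPM and HCT8 15073 CPM. Hypoxic DLD1 had 16361 CPM, HCT116 40532 CPM and HCT8 20172 CPM. HCT116 was thus the highest line under either condition, and DLD1 the lowest, 3.19-fold apart at the extremes. In counts, these levels ran from 651531 in untreated DLD1 to 2245277 in HCT116 under hypoxia, or 1.27% to 4.05% of a library.

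RN7SK exceeded the second gene of its library by 1.24-fold in NCM460 and by 2.93-fold in HCT116 under hypoxia, the extremes of the 8. The second gene was RPPH1 in 6 libraries, RMRP in untreated HCT116 and the mitochondrial gene COX1 in HCT116 under hypoxia. By mean CPM over the 8 libraries, RN7SK (21266), RPPH1 (10442) and RMRP (7930) were followed by COX1 (7627), the translation factor EEF1A1 (5600) and the glycolytic enzyme GAPDH (5306), which lay just outside the set. The 4 RNAs with counts held between 2.56% (DLD1) and 6.02% (HCT116 under hypoxia) of a library together.

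RPPH1 was more even across libraries. It had 13852 CPM in NCM460 and 14075 CPM in HIEC6, a mean of 13963 ± 158 (SD, n = 2). It had 7824 CPM in DLD1, 10401 CPM in HCT116 and 11552 CPM in HCT8 without treatment, and 8047, 8321 and 9464 CPM in the same lines under hypoxia. The 3 untreated CRC lines were all below both normal lines, a pattern that 4.99% of the 19964 genes tested showed. So were the 3 hypoxia libraries, for which no such share was computed. The highest level was 1.80-fold the lowest.

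RMRP had 11654 CPM in NCM460 and 7311 CPM in HIEC6. Without treatment it had 4785 CPM in DLD1, 10492 CPM in HCT116 and 5328 CPM in HCT8, and under hypoxia 6262, 10942 and 6667 CPM. The levels in NCM460 and HCT116 were above those of HIEC6, DLD1 and HCT8 under either condition, so the normal and CRC groups overlapped.

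TERC was the least abundant of the 4. Its level was 413 CPM in NCM460 and 293 CPM in HIEC6, and without treatment DLD1, HCT116 and HCT8 had 238, 357 and 149 CPM. Under hypoxia the same lines had 265, 388 and 95.7 CPM. HCT8 was the lowest line under both conditions, and TERC ranked between 303 and 2490 among all genes of a library.

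Compared per length, as CPM per kb of the annotated RNA, RN7SK (38435 to 122454) was above RMRP (18124 to 44144), and TERC was far below both (177 to 763). The order of the means by CPM was RN7SK, RPPH1, RMRP and TERC. The ranges of RN7SK and RPPH1, and of RPPH1 and RMRP, overlapped across libraries, and that of TERC stood apart. These are shares of a library, in which more of an RNA per cell and less of the other RNAs cannot be told apart.

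**Figure D2:**
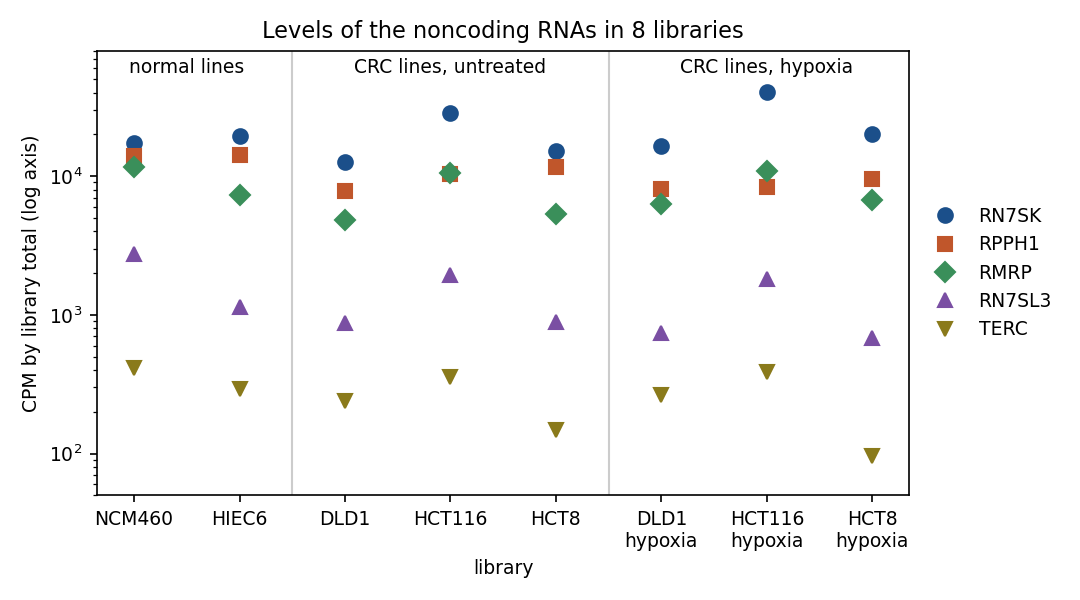
Level of RN7SK, RPPH1, RMRP, RN7SL3 and TERC (CPM by library total, log axis) in each of the 8 libraries, with 1 point per library and no error bars, since each library is 1 culture. RN7SK was highest in every library, at 12722 to 40532 CPM, and TERC lowest, at 95.7 to 413 CPM.

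All counts under a 7SL symbol fell on other rows than those of RN7SL1 and RN7SL2. For a count of 0 on those 2 rows, the exact interval described above ended at 6.43e-06% (DLD1 under hypoxia) to 8.10e-06% (HCT8 under hypoxia) of a library. That interval covers counting error only. The handling of reads with several matches is not given, so a count of 0 sets no limit on the level of the RNA. Of 632 rows with a 7SL symbol, RN7SL3 and the copies RN7SL4P (chr3:15780022-15780315, plus strand) and RN7SL5P (chr9:9442060-9442347, plus strand) held 96.7% to 99.2% of the 7SL counts of a library. The rows summed to 4584 CPM in NCM460 and 3816 CPM in HIEC6. For DLD1, HCT116 and HCT8 the sums were 2387, 3779 and 2024 CPM without treatment, and 2055, 3586 and 1578 CPM with hypoxia. HCT116 was the highest of the CRC lines under either condition, and by library total each CRC line had a lower sum under hypoxia. RN7SL3 alone differed by -0.22, -0.08 and -0.38 (log2) by library total and by -0.18, 0.27 and -0.37 after TMM, so its direction in HCT116 turned with the scaling.

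The share on RN7SL3 differed between lines. It was 60.1% of the 7SL counts in NCM460 and 29.8% in HIEC6. The row held 36.3% in DLD1 under both conditions, 51.1% and 50.8% in HCT116 without and with hypoxia, and 43.8% and 43.2% in HCT8. The 2 conditions of a line thus lay closer together than any 2 lines. RN7SL5P had 31.1% to 149% of the count of RN7SL3, and RN7SL4P had 34.0% to 91.6%. RN7SL2 was 96.3% identical to RN7SL3, 87.2% to RN7SL4P and 88.3% to RN7SL5P. Reads could be split among these rows, so each row's level is uncertain. How reads were assigned was not tested. The RN7SL3 count was 100842 in both HCT116 libraries, whose totals differed.

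**Figure D3:**
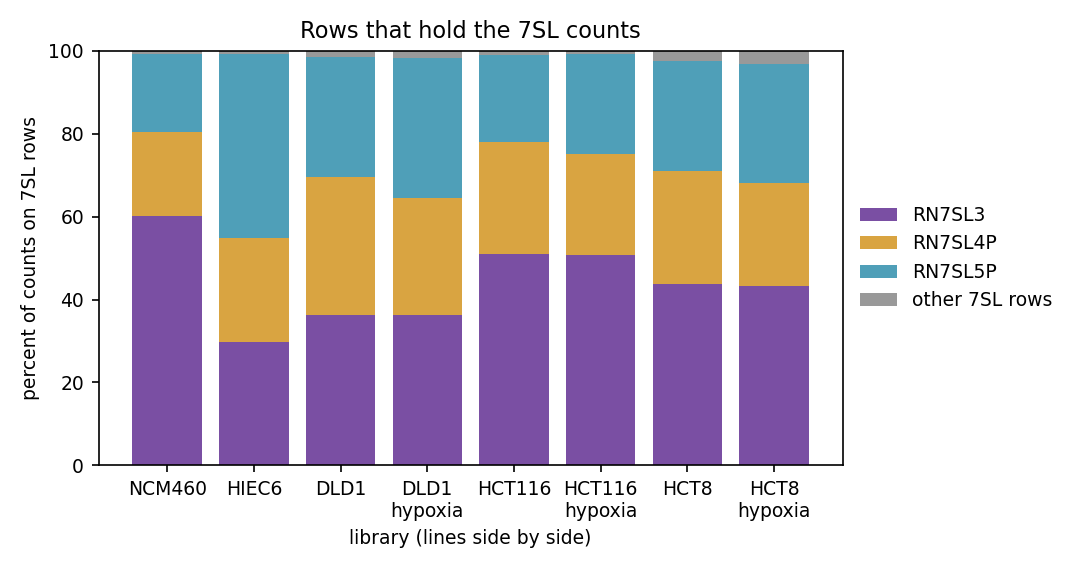
Percent of the counts on all 7SL rows (vertical axis, 0 to 100) that fell on RN7SL3, RN7SL4P, RN7SL5P and the other rows, stacked, in each library. RN7SL3 took 29.8% in HIEC6 to 60.1% in NCM460, and in each CRC line its share was close under both conditions, as in HCT8 with 43.8% and 43.2%.

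Copies of RN7SK took few reads. Of 293 rows named as RN7SK pseudogenes, 104 had counts. Together they held 1.01% to 1.07% of the RN7SK count in the untreated libraries and 0.767% to 0.808% under hypoxia. RN7SKP203 (chr2:76672205-76672536, minus strand), 85.0% identical to RN7SK, held most of these. Its share was 0.809% to 0.859% in the untreated libraries and 0.626% to 0.678% under hypoxia. RN7SK is the denominator, so a higher RN7SK by itself lowers these shares. RN7SKP203 itself had 103 CPM without and 104 CPM with hypoxia in DLD1, 235 and 275 CPM in HCT116, and 124 and 126 CPM in HCT8. How often ratios of other genes separate the conditions was not examined. Run and treatment cannot be told apart here, and the cause was not tested. The RMRP copy RMRPP5 was listed at 0.

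The comparison of hypoxia with no treatment asks which RNAs differed in the CRC lines under low oxygen. RN7SK was higher under hypoxia in 3 of 3 lines, by 28.6% in DLD1, 42.3% in HCT116 and 33.8% in HCT8 by library total. RMRP was higher in 3 of 3 lines as well, by 30.9%, 4.29% and 25.1%. Neither passed edgeR's test, with or without the line as a block. Of all 21045 genes tested, 16.2% were higher by library total in all 3 lines and 26.4% were lower in all 3.

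In edgeR's quasi-likelihood test without the line, the log2 fold change of RN7SK was 0.67 ± 0.64 (SE) and that of RMRP 0.40 ± 0.54, each with a Benjamini-Hochberg adjusted p that rounded to 1. The test called 0 of the 4 members and 0 of 21045 genes (0%), while 606 genes had an unadjusted p under 0.05 and DESeq2 called 55. The same-numbered libraries are the same line, and with the line as a block RN7SK had a log2 fold change of 0.56 ± 0.19 (edgeR, unadjusted p = 0.0173, adjusted p = 0.176) and RMRP 0.39 ± 0.17 (edgeR, adjusted p = 0.273). That fit gave 3884 genes an unadjusted p under 0.05 and called 200 genes, 0.95% of those tested, and again 0 of the 4 members. With DESeq2 and the block, RN7SK was called (log2 fold change 0.59, adjusted p = 0.0450) and RMRP was not (adjusted p = 0.0792). That DESeq2 fit, chosen after seeing the data, called 1666 of the 21045 genes tested, against 200 in edgeR with the block. Over all alternatives the adjusted p of RN7SK ran from 0.0450 to 1 (edgeR, DESeq2 or limma).

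The size of the difference in HCT116 depended on the scaling. On the TMM scale, RN7SK differed by 0.40 in DLD1, 0.87 in HCT116 and 0.43 in HCT8 (log2), against 0.36, 0.51 and 0.42 by library total. RMRP differed by 0.42, 0.42 and 0.33 on the TMM scale, against 0.39, 0.06 and 0.32. Both were above 0 in each line on both scales. The median of all genes in the fit without the block was 0.06 with TMM and -0.06 by library total, and with the block 0.032 and -0.10. Without the HCT116 hypoxia library, edgeR's unblocked log2 fold change was -0.11 for RN7SK and -0.15 for RMRP. That fit kept untreated HCT116, the highest untreated CRC line in both RNAs, without its pair. Within DLD1 and HCT8, whose pairs remained, both RNAs were higher under hypoxia, as given above. The cause was not tested.

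RPPH1 and TERC showed no common direction. By library total RPPH1 differed by 0.040 in DLD1, -0.32 in HCT116 and -0.29 in HCT8 (log2), and the HCT116 value was 0.036 after TMM. In edgeR's blocked test RPPH1 had a log2 fold change of -0.06 ± 0.18 (adjusted p = 0.900). TERC differed by 0.16, 0.12 and -0.64 by library total and by 0.19, 0.48 and -0.62 after TMM, and its blocked value in edgeR was 0.02 ± 0.23 (adjusted p = 0.979).

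**Figure D4:**
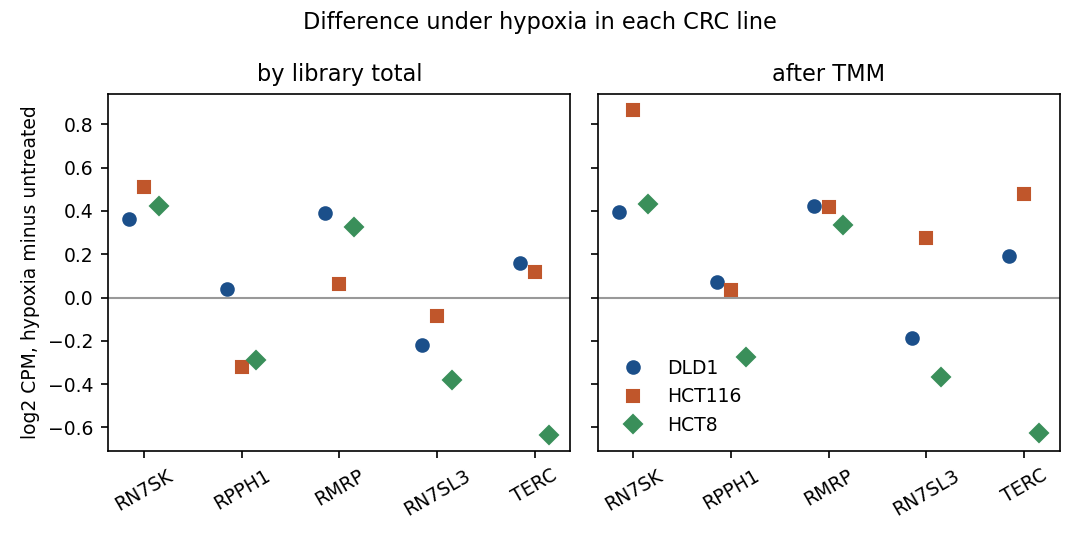
Difference in log2 CPM between hypoxia and no treatment in each CRC line (1 point per line), by library total on the left and after TMM on the right. All points of RN7SK and RMRP lie above 0 in both panels, and TERC in HCT8 lies lowest, at -0.64 and -0.62.

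A ratio of counts between RNAs of the same library does not depend on its total. RN7SK to RPPH1 was 1.63 without and 2.03 with hypoxia in DLD1, 2.74 and 4.87 in HCT116, and 1.30 and 2.13 in HCT8, with 1.24 in NCM460 and 1.39 in HIEC6. The ratio was higher under hypoxia in 3 of 3 lines, with a mean paired log2 difference of 0.62 ± 0.27 (SD, n = 3 lines). RMRP to RPPH1 was 0.612, 1.01 and 0.461 without treatment and 0.778, 1.32 and 0.704 under hypoxia, with 0.841 in NCM460 and 0.519 in HIEC6. It too was higher in each line, by 0.45 ± 0.14 on the log2 scale (SD, n = 3 lines).

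RN7SL3 to RN7SK has RN7SK as its denominator, so a higher RN7SK by itself lowers this ratio. In DLD1 it was 0.0681 without and 0.0455 with hypoxia, in HCT116 0.0678 and 0.0449, and in HCT8 0.0588 and 0.0338, so the groups did not overlap. How often ratios of other genes do so was not examined. The normal lines had 0.160 (NCM460) and 0.0580 (HIEC6). The mean paired log2 difference was -0.66 ± 0.12 (SD, n = 3 lines). By library total, the mean difference was 0.43 for RN7SK and -0.23 for RN7SL3 (log2). RN7SK to RMRP was 2.66, 2.71 and 2.83 without treatment and 2.61, 3.70 and 3.03 under hypoxia, higher in 2 of 3 lines. TERC to RPPH1 was 0.0304, 0.0343 and 0.0129 without treatment and 0.0330, 0.0466 and 0.0101 under hypoxia, also higher in 2 of 3 lines.

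No ratio passed a test. The two-sided exact permutation test of hypoxia against no treatment gave p = 0.1 for RN7SL3 to RN7SK, the smallest that 3 against 3 allows, p = 0.9 for TERC to RPPH1 and p = 0.4 for each of the other 3 ratios. Over the 10 ratio tests of both comparisons, the Benjamini-Hochberg adjusted values of these exact tests were between 0.667 and 1. Flipping signs within lines gave an exact p of 0.25 for RN7SK to RPPH1, RMRP to RPPH1 and RN7SL3 to RN7SK, the smallest that 3 pairs allow.

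**Figure D5:**
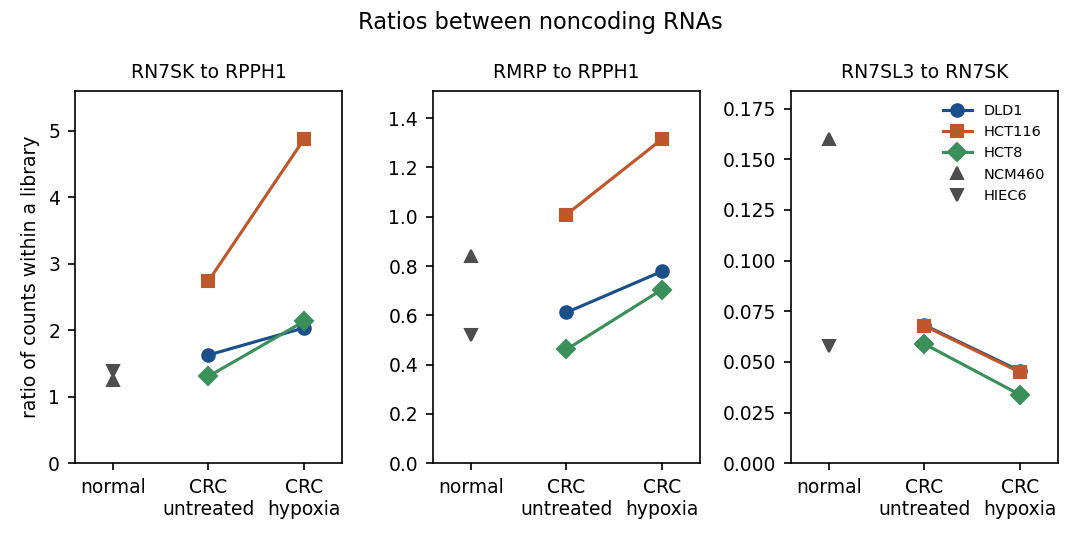
Ratio of counts within a library for RN7SK to RPPH1, RMRP to RPPH1 and RN7SL3 to RN7SK (linear axes from 0), with a line joining the untreated and hypoxia libraries of each CRC line and separate points for the normal lines. In each CRC line the first 2 ratios were higher and the last was lower under hypoxia.

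The comparison of untreated CRC lines with normal lines asks which RNAs differed between tumour and normal epithelium in culture. RPPH1 was the only one of the 4 whose CRC lines all lay below both normal lines, a pattern that 4.99% of the 19964 genes tested showed. Its mean was 9926 ± 1909 CPM (SD, n = 3) against 13963 ± 158 CPM (SD, n = 2). In edgeR's quasi-likelihood test its log2 fold change was -0.69 ± 0.33 (SE), with a Benjamini-Hochberg adjusted p of 0.999.

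The other members had log2 fold changes of -0.15 ± 0.51 (RN7SK), -0.62 ± 0.50 (RMRP) and -0.66 ± 0.47 (TERC), each with an adjusted p of 0.999 in edgeR. None of the 4 members was called, and neither was any of the 19964 genes (0%), while 542 had an unadjusted p under 0.05 and DESeq2 called 143. With library totals in place of TMM the value of RN7SK was 0.028, while the median of all genes moved from -0.0048 to 0.17. Without NCM460, the normal library that resembled HCT116, edgeR gave -0.30 for RN7SK, -0.33 for RMRP, -0.77 for RPPH1 and -0.48 for TERC, against the remaining normal line, which is then assumed to vary like the CRC lines. Without HCT116 the values were -0.65 for RN7SK, -1.13 for RMRP and -1.07 for TERC. Without DLD1 that of RMRP was -0.41, and without HCT8 that of TERC was -0.36.

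NCM460 and HCT116 were alike in some of these RNAs and not in others. NCM460 had 0.605 times the RN7SK level of untreated HCT116, but was 33.2% higher in RPPH1, 11.1% higher in RMRP and 15.8% higher in TERC. With 1 library of each, these differences have no replicate check. The exact permutation test of CRC against normal lines gave p between 0.4 and 1 for the 5 ratios, where 0.2 is the smallest that 3 against 2 allows. With the pseudogene copies of both RNAs added, the ratio of RN7SL3 to RN7SK differed by -0.61 (log2) in place of -0.57, the groups no longer overlapped, and the exact p was 0.2 in place of 0.8.

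Genes of the partner proteins are given as lists with their counts, beside all genes tested. None of their genes passed edgeR's test in either comparison, with or without the block. The 7SK and P-TEFb list (7 genes) had a median log2 fold change of 0.08 under hypoxia in the blocked fit, with 4 above 0 and 3 below, against 0.03 over all genes. MEPCE, which caps the 7SK RNA, had -0.48 ± 0.26, HEXIM2, an inhibitor of P-TEFb, 0.18 ± 0.28 and CCNT2, a cyclin of P-TEFb, -0.12 ± 0.17 in that fit.

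All 10 tested genes of the RNase P and RNase MRP list were below 0 under hypoxia in both fits. Their median was -0.45 without the block and -0.48 with it, against 0.06 and 0.03 over all genes. The blocked fit gave 5 of the 10 an unadjusted p under 0.05, as it did 3884 of all 21045 genes. POP1, a large subunit shared by both enzymes, had 46.0 CPM without and 35.5 CPM with hypoxia in DLD1, 62.0 and 10.1 CPM in HCT116, and 27.7 and 9.40 CPM in HCT8. It was lower in each line, as were 26.4% of all genes tested by library total. Its blocked log2 fold change was -1.39 ± 0.35 (edgeR, adjusted p = 0.104). RPP25, another subunit, had 14.96 CPM in NCM460 and 110 CPM in HIEC6 against 3.22 to 11.1 CPM in the untreated CRC lines, and its log2 fold change in the CRC lines was -3.22 ± 1.01 (edgeR, adjusted p = 0.999). RPP25L, its paralog, had 0.39 ± 0.33 in that comparison.

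Of the 13 genes for subunits of RNA polymerase III, 12 were below 0 under hypoxia in the blocked fit. Their median was -0.60, against 0.03 over all genes. POLR3B, the second largest subunit, had 37.9, 27.5 and 23.7 CPM without treatment and 20.4, 3.50 and 13.03 CPM under hypoxia. POLR3K, a small subunit, had 32.9, 16.6 and 26.8 CPM without treatment and 22.0, 4.17 and 8.72 CPM under hypoxia. Both were lower in each line, as were 26.4% of all genes tested by library total. In the blocked fit they had -1.41 ± 0.36 and -1.26 ± 0.28 (edgeR, adjusted p = 0.108 and 0.0799). POLR1D, shared with RNA polymerase I, was the gene above 0, at 0.47 ± 0.23.

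Of 20 factors of RNA polymerase III, 13 were below 0 and 7 above in the blocked fit, with a median of -0.16. The highest value in that fit was 0.84 ± 0.23 for SNAPC3, a subunit of the SNAPc complex that binds promoters of small nuclear RNA genes (edgeR, adjusted p = 0.121). ZNF143, an activator of small nuclear RNA promoters, had 0.75 ± 0.29, and BDP1, a part of TFIIIB, -1.10 ± 0.45. GTF3C6, a part of TFIIIC, had -1.11 ± 0.34 in that fit, and 0.54 ± 0.76 in the CRC lines against the normal ones, where GTF3C5 had -0.78 ± 0.34.

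The signal recognition particle list (8 genes) was divided evenly under hypoxia, 4 above 0 and 4 below, with a blocked median of -0.03. SRPRB, the membrane subunit of the receptor, was at 124 CPM without and 84.6 CPM with hypoxia in DLD1, 63.5 and 18.4 CPM in HCT116, and 91.7 and 25.9 CPM in HCT8. Its blocked log2 fold change was -1.25 ± 0.26 (edgeR, adjusted p = 0.0751). SRP14, which binds the 7SL RNA, had 0.05 ± 0.17 and SRP54, which binds signal peptides, 0.17 ± 0.18 in the same fit.

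Of 10 genes of telomerase and its assembly, 8 were below 0 and 2 above in the blocked fit, with a median of -0.39. DKC1, the pseudouridine synthase that binds TERC, had 194, 152 and 147 CPM without treatment and 116, 60.8 and 41.7 CPM under hypoxia. It was lower in each line, as were 26.4% of all genes tested by library total. Its blocked log2 fold change was -1.15 ± 0.24 (edgeR, adjusted p = 0.0747). NOP10, another TERC-binding protein, had -0.04 ± 0.18. PARN, the nuclease that trims TERC, had 1.22 ± 0.47, and PAPD5, which adds A residues to TERC, 0.29 ± 0.20.

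Among 24 other small structured RNAs, 16 were tested under hypoxia, with 5 above 0 and 11 below and a blocked median of -0.29. SCARNA2, a Cajal body RNA, had 235, 229 and 191 CPM without treatment and 164, 150 and 69.0 CPM under hypoxia, with a blocked log2 fold change of -0.73 ± 0.25 (edgeR, adjusted p = 0.181). RNU5A-1, a spliceosomal U5 RNA, had 0.57 ± 0.35 and RNU1-1, a U1 RNA, -0.85 ± 0.54 in that fit. In the CRC lines against the normal ones, RNU4-2, a U4 RNA, had -1.34 ± 0.42 and RNU1-1, with 2 counts in NCM460, had 3.41 ± 1.83, and neither passed edgeR's test.

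The genes most like each RNA over the 8 libraries were named by Pearson r of log2(CPM + 1) among 14354 genes, as a description of libraries that share lines. For RN7SK they were RPL32, a ribosomal protein gene (r = 0.969), and PPIL3 (r = 0.955). RMRP was most like MPP7 (r = 0.991) and ATP2A3, a calcium pump gene (r = 0.980). For RPPH1 they were CENPV (r = 0.938) and DNAJB4 (r = 0.932), and for TERC CNKSR3 (r = 0.990) and FAM160B1 (r = 0.970). Among the RNAs themselves, r was 0.736 between RN7SK and RMRP, 0.666 between RMRP and TERC and -0.0947 between RN7SK and RPPH1, each over 8 libraries of 5 lines.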

How the data were processed

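Total RNA of the cell lines was depleted of ribosomal RNA and sequenced on an Illumina instrument, and the authors deposited raw read counts per gene symbol, without normalization. The methods name GRCh37.p13, whereas the submitters' processing notes name HISAT2 2.0.4 and GRCh38. The counter, the strand and the treatment of reads with several matches are not given in the sources used here. Positions, lengths and sequences were taken from GENCODE on GRCh37 by symbol, so the build of the counts may differ. The 7SL sequences are not reported here.

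CPM used the total of each column. Genes that reached 10 counts in 2 or more of the libraries compared were tested with edgeR 4.0.16 (glmQLFit and glmQLFTest, TMM, Benjamini-Hochberg, threshold 0.05) in R 4.3.3. The procedure was checked on simulated counts without a line effect. Their spread was below the coefficients of variation estimated in the fits without the block, 0.868 (CRC) and 0.876 (hypoxia). The check therefore does not cover those fits. The standard error was the log2 fold change over the root of F. Ratios used exact permutation tests in SciPy 1.17.1. Alternatives were DESeq2 1.42.0, limma-trend (limma 3.58.1), other scalings and filters, the replicate block and leaving out each library. After subtracting group means, the 2 libraries of a line had a Pearson r of 0.865 to 0.873, while those of different lines had -0.620 to -0.0979, so the line pairs the samples in the hypoxia comparison. Members and lists were chosen with earlier results of these data known. Named genes were the members, the gene of each list with the largest change per direction and comparison in the fit without the block, among those with mean log2 CPM above 1, the 2 genes most like each member, and, chosen after their values were seen, SNAPC3, RN7SL3 and the named copies. The planned ratios that need RN7SL1 or RN7SL2 could not be computed, and 4 others (RN7SK to RPPH1, RN7SK to RMRP, TERC to RPPH1, RN7SL3 to RN7SK) were chosen in their place after seeing the data.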

Additional observations from a re-analysis of the deposited data

Results flagged for a closer look

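By library total, RPPH1 differed under hypoxia by 0.040 (log2) in DLD1 and by -0.29 in HCT8, opposite directions that held after TMM. TERC differed by 0.16 in DLD1 and 0.12 in HCT116 but by -0.64 in HCT8, again on both scales. Each line had 1 library per condition, so these differences between lines were not tested. No group had 4 or more libraries, so single libraries were not examined for standing apart within a group.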

How the results depend on the processing

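In no alternative without the block was any of the 4 members called. The number of genes called moved from 0 to 143 with DESeq2 in the CRC comparison and from 0 to 55 with DESeq2 under hypoxia. With the replicate block it was 200 under hypoxia, and with the block, in fits chosen after seeing the data, 1666 with DESeq2, 172 with library totals, 162 with library totals without the members and 113 with limma-trend. The block changed no call of a member in edgeR, and with DESeq2 1 member, RN7SK, was called. The cause was not tested. In the CRC comparison RN7SK was 0.028 with library totals and 0.025 with totals without the members, and between -0.65 and 0.069 with each library left out. Under hypoxia, each library was left out of the fit without the block, which kept the other library of its line unpaired. This gave -0.11 to 1.18 for RN7SK, -0.15 to 0.92 for RMRP, -0.22 to 0.034 for RPPH1 and -0.49 to 0.67 for TERC. TERC was -0.12 and -0.11 in the blocked fits with library totals and with totals without the members. With each library left out, RMRP to RPPH1 in CRC against normal lines ran from -0.36 to 0.34 (log2), TERC to RPPH1 from -0.33 to 0.37 in that comparison and from -0.38 to 0.72 under hypoxia, and RN7SL3 to RN7SK in CRC against normal lines from -1.30 to 0.16, the last value without NCM460. RN7SL3 to RN7SK under hypoxia stayed below 0 in each of these, and RN7SK to RPPH1 stayed above 0. The counting error of the log2 difference between conditions of a line was at most 0.0273 for the 4 members with counts and RN7SL3, and is larger for genes with few counts, such as RNU1-1.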
